A study of Rattus norvegicus with 8 samples.

Results

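The chemokine ligands and receptors measured here are the 51 genes, of 35833 genes or names on the array, whose probes carry a Ccl, Cxcl, Cx3cl, Xcl, Ccr, Cxcr or Cx3cr name followed by a number. They comprise 34 ligands and 17 receptors, read by 70 probes in 128 spots. Total RNA from the livers of male Wistar rats was labelled with Cy3 and hybridised to 8 single-colour Agilent arrays, 1 rat to an array per the labels. The control group (4 rats, control 1 to control 4) received maltodextrin at 3.0 g/kg body weight, and the STL group (4 rats, STL 5 to STL 8) received structured lipids containing butyrate at 1.65 g/kg, the maltodextrin dose being matched to the lipids in calories and the lipids given each day by gavage. Both groups entered a resistant hepatocyte protocol of liver carcinogenesis 2 weeks after treatment began, in which carcinogen-altered hepatocytes are selected to grow into preneoplastic nodules, and all livers were taken at 8 weeks. No liver without the carcinogenesis protocol was used here, so every comparison is between treated and control livers that had both gone through it. The question was which chemokine transcripts differed between the livers of rats given the lipids and those given maltodextrin.

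All 6 hepatocyte markers checked (Alb, Apoa1, Ttr, Serpina1, Hnf4a and Cps1) were well above background on all 8 arrays. The share of the 45598 probes well above background ran from 54.2% to 62.8% over the arrays, and 0 spots were saturated. The lowest share was that of STL 7, the dimmest array, whose 75th percentile of signal was 304 against 454 to 605 on the others. The part of array brightness in the counts of arrays above background was not tested. Control 1 and control 2 differed by no more than repeated spots of 1 array did: the standard deviation of their difference over 2046 repeatedly spotted probes was 0.967 times that within an array, against 2.34 to 7.35 times for the other 27 pairs of arrays. They were therefore averaged and counted as 1 sample, which left 3 control samples against 4 STL samples. Each value below is the log2 signal of a gene's brightest probe relative to the 75th percentile of its array, so 0 is the signal of the probe at that percentile and a step of 1 is a doubling of signal. Differences are STL minus control, with the standard error (SE) of the limma model fitted over all 21673 genes tested and p-values adjusted by Benjamini-Hochberg over those genes. Values of different probes are not comparable as abundances, so levels are compared only between samples.

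Chemokines are small secreted proteins that steer leukocytes along gradients by binding receptors coupled to inhibitory G proteins on the cell surface. The families are named after the spacing of conserved cysteines: CC, CXC, CX3C and XC. In the liver they are released by Kupffer cells, endothelial cells, stellate cells, bile duct cells and hepatocytes, where injury, bacterial products, tumour necrosis factor or interferon gamma induce many of them through NF-kB and interferon signalling. In whole tissue, fewer cells of a type and less RNA per cell cannot be told apart.

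Of the RefSeq promoter entries (GRCr8 assembly), 39 matched a chemokine gene by symbol. The 250 bases upstream of the annotated start are shown for Cxcl10, Cxcl2 and Cxcl1, because Cxcl10 had the smallest p of the chemokine genes and Cxcl2 and Cxcl1 the most negative differences. Capitals mark matches, on either strand, to the NF-kB consensus and to the interferon-stimulated response element (GAAA, any 2 bases, then GAAA). The windows are chr14:15988816-15989065 on the plus strand for Cxcl10, chr14:17467256-17467505 on the minus strand for Cxcl2 and chr14:17479322-17479571 on the minus strand for Cxcl1.
Cxcl10: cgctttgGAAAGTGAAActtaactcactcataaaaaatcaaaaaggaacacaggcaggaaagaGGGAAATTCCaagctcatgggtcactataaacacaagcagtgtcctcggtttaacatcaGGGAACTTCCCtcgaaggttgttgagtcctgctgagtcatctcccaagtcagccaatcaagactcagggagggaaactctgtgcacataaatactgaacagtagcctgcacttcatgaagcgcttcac
Cxcl2: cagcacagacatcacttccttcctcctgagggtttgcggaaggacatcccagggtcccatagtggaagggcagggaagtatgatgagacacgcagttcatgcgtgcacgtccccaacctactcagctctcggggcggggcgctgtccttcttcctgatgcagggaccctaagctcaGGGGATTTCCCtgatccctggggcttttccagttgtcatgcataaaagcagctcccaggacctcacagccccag
Cxcl1: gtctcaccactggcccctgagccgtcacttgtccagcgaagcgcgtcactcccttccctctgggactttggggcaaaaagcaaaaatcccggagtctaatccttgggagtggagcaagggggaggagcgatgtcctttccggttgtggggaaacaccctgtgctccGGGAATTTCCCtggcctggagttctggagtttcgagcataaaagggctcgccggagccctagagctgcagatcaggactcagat

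In the Cxcl10 window the interferon element lay at -243 to -234 relative to the start, and NF-kB matches lay at -187 to -178 and, as a pair that overlap on opposite strands, at -128 to -118. The NF-kB matches of Cxcl2 and Cxcl1 overlapped each other within 1 stretch in each window, at -74 to -64 for Cxcl2 and -84 to -74 for Cxcl1. An NF-kB match was present in 9 of the 39 chemokine windows (23.1%) and in 6.33% of all 33469 windows of that length. The interferon element was found in 2 of the 39 (5.1%) and in 3.41% of all windows, and the AP-1 site TGAGTCA in 5 (12.8%) and 4.05%. These matches describe letters in a window and not occupied sites.

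Of the 51 genes, 28 were well above background on all 8 arrays, and 34 (25 ligands and 9 receptors) were so on at least 4 arrays and were tested. A further 6 reached that level on 1 to 3 arrays: Ccl7, Ccl11, Ccl17, Ccl20, Ccl28 and Cxcr2. The other 11 did so on no array, among them the ligands Ccl1, Ccl25, Ccl26 and Cxcl6 and the receptors Ccr1, Ccr2, Ccr3, Ccr4, Ccr7, Ccr10 and Cxcr1. Receptors were thus represented by 9 of 17 genes and ligands by 25 of 34.

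No chemokine gene passed the adjusted threshold of 0.05 in limma, where 1 of the 21673 genes tested (0.00461%) did. At an unadjusted p under 0.05 there were 8 chemokine genes of 34 (23.5%), against 19% of all genes, a share near the background. By direction, 6 of the 34 (17.6%) were lower in STL livers at that level, against 7.41% of all genes, and 2 (5.88%) were higher, against 11.6%. The lower ones were Cxcl10, Cxcl2, Cxcl13, Cxcl16, Ccl3 and Cx3cl1, all of them ligands, and the higher ones were the ligand Cxcl12 and the receptor Cxcr5. A difference of at least 2-fold was seen downward in 5 genes (14.7%, against 2.35% of all genes) and upward in 1 (2.94%, against 1.69%). Counting direction alone, 20 of the 34 (58.8%) were lower in STL livers, against 41.9% of all genes. Of these genes, Cxcl2, Cxcl13, Cxcl3 and Cxcr3 passed the filter on low values through the 4 control arrays, with 2 of 4 STL arrays above background. Cxcr6 did so with 1 STL array above background. The counts of lower genes that hold any of these are therefore not read against the shares of all genes. The median difference was -0.11 over the 25 ligands and 0.06 over all genes tested. The ligand median was -0.28 without STL 6, -0.25 without control 3 and -0.07 without STL 7, and under normexp background correction it was -0.003, with 12 ligands higher and 13 lower. Without STL 5 the count at the unadjusted level was 5 of 34, against 14.4% of all genes, again a share near the background. Without control 4 it was 10 of 34 (5 higher and 5 lower), a larger share than the 13.3% of all genes, and 5 of the 10 were among the 8 above. Cxcl2 and Cxcl13 were among the 10, so that count is not read against the share of all genes either.

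**Figure D1:**
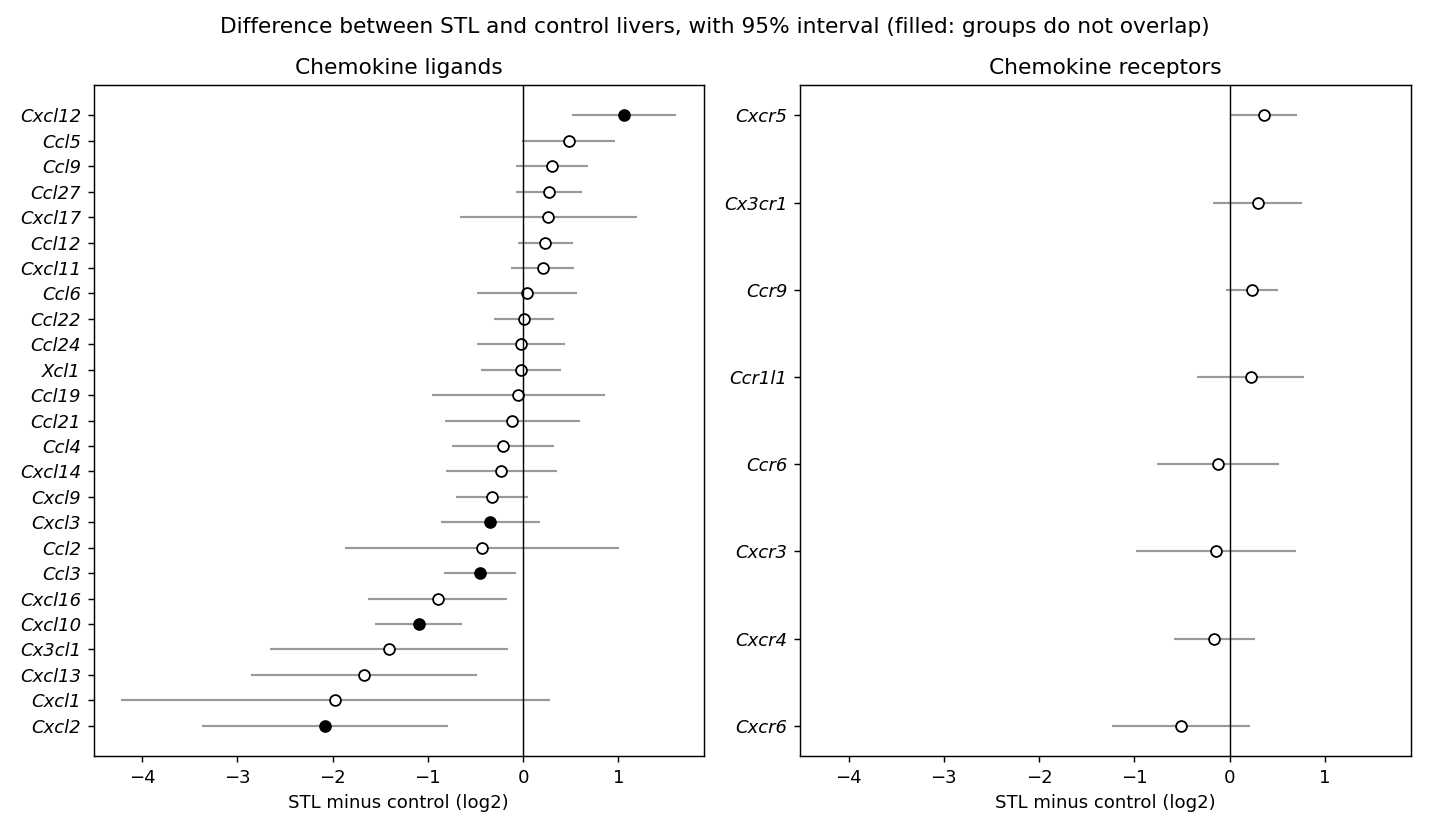
The horizontal axes give the difference STL minus control (log2) for 25 ligands and 8 receptors tested (1 is not shown), with its 95% interval from the limma model; filled points mark genes whose control and STL samples did not overlap. Cxcl2, Cxcl1, Cxcl13, Cx3cl1 and Cxcl10 lie below -1, and Cxcl12 is the only gene above 1.

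The interferon-inducible ligands Cxcl9, Cxcl10 and Cxcl11 attract activated T and NK cells through Cxcr3, and of the 3 only Cxcl10 had groups that did not overlap. Cxcl10 (probe at chr14:17267994-17268053, rn4, plus strand) had the smallest p of the chemokine genes. It measured 0.36 in the averaged control 1 and 2, 0.86 in control 3 and 0.31 in control 4, and -0.66, -0.45, -0.27 and -0.96 in STL 5, 6, 7 and 8. Every STL liver was below every control liver, and the difference of -1.09 (SE 0.20), or 2.13-fold lower, had an unadjusted p of 0.000465 and an adjusted p of 0.160 in limma.

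Cxcl9 measured -0.13, -0.08 and -0.42 in the control samples and -0.19, -0.67, -0.53 and -0.76 in the STL livers. Its groups overlapped through STL 5, with a difference of -0.33 (SE 0.17, limma adjusted p = 0.310). Cxcl11 measured 0.62, 0.60 and 0.18 in controls and 0.83, 0.52, 0.76 and 0.59 in STL livers, a difference of 0.21 (SE 0.15, limma adjusted p = 0.453) that was 0.06 without control 4. The 3 genes neighbour each other on chromosome 14, where RefSeq also places Art3 over Cxcl10 and Cxcl11. Their receptor Cxcr3 was well above background on all 4 control arrays and 2 of 4 STL arrays. It spanned -4.46 to -4.00 in controls and -5.13 to -3.69 in STL livers, which overlap.

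Among 17 interferon gamma pathway genes, 16 were tested, and Ifng itself was above background on no array. Of the 16, 13 were lower and 3 higher in STL livers, with a median of -0.15, and none passed the adjusted threshold. At an unadjusted p under 0.05 there were 4 lower genes and 1 higher of the 16, against 7.41% and 11.6% of all genes. Ifngr2, the signalling chain of the interferon gamma receptor, measured 2.68, 3.13 and 2.96 in controls and 2.28, 2.42, 2.49 and 2.20 in STL livers, a difference of -0.57. Gbp2, an interferon-induced GTPase, differed by -0.67 and Tap1, a peptide transporter of antigen presentation, by -1.08, both without overlap between groups. Irf1, the transcription factor that drives many of these genes, differed by -0.81, with control 4 at 4.18 below STL 7 at 4.24. The 1 higher gene was Jak1, at 0.34 (limma unadjusted p = 0.0214), also without overlap between groups. Stat2 differed by 0.18 and was not at that level (limma unadjusted p = 0.194).

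**Figure D2:**
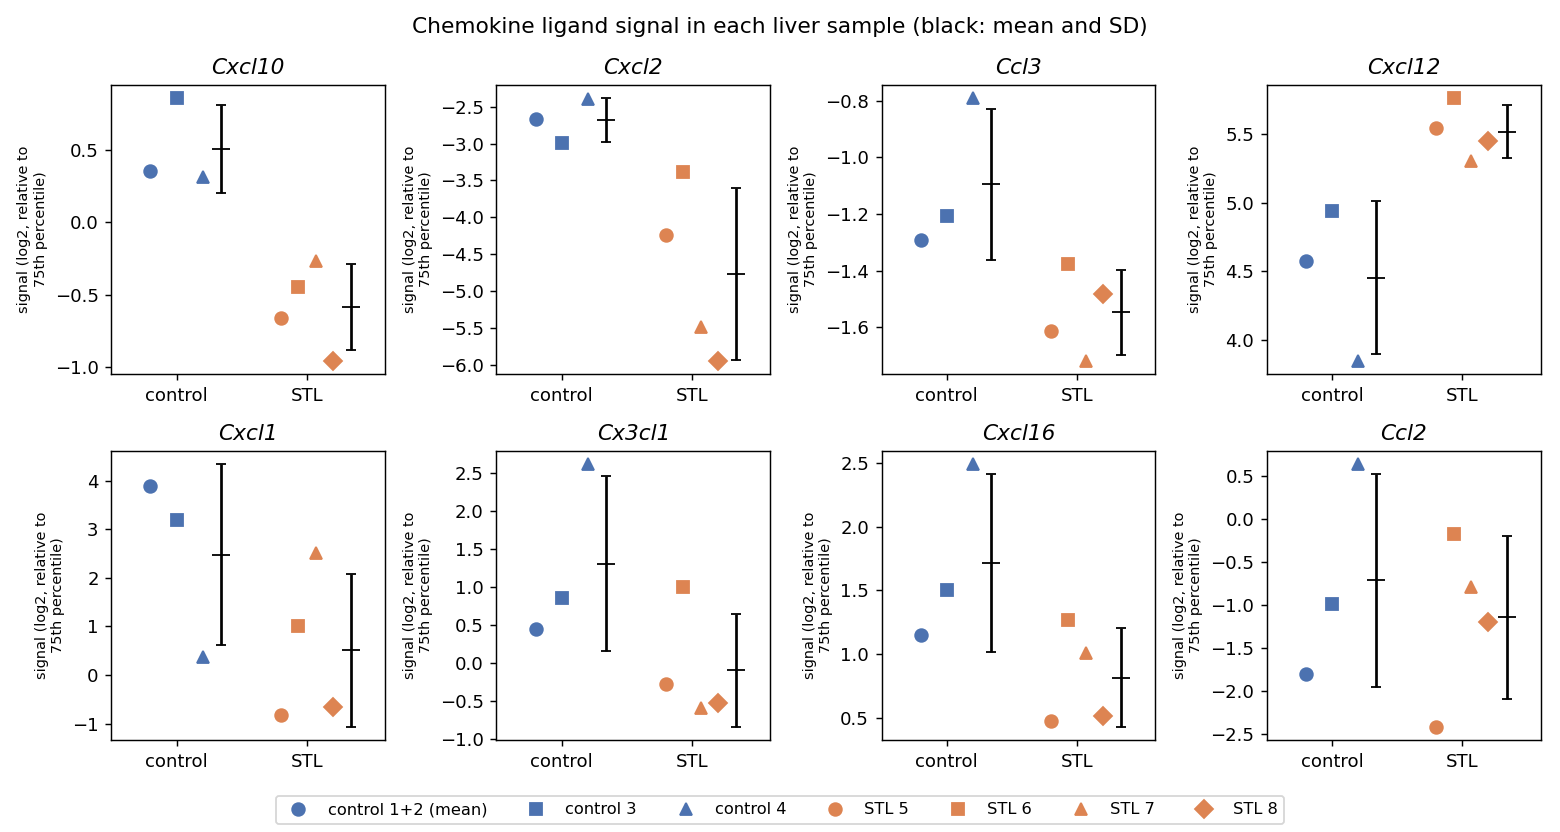
Each panel shows 1 ligand, with the signal (log2, relative to the array's 75th percentile) of the 3 control samples and the 4 STL livers as points and the mean and SD of each group in black. The groups of Cxcl10, Cxcl2, Ccl3 and Cxcl12 do not overlap, and control 4 is the lowest control for Cxcl1 and the highest for Cx3cl1, Cxcl16 and Ccl2.

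Cxcl1, Cxcl2, Cxcl3 and Cxcl6 carry the ELR motif and draw neutrophils through Cxcr1 and Cxcr2. Cxcl2 (probe at chr14:18677165-18677224, rn4, minus strand) measured -2.67, -2.99 and -2.39 in controls, and -4.24, -3.38, -5.48 and -5.94 in STL 5 to STL 8. All STL values lay below all control values, and the probe was well above background on the 4 control arrays and 2 of the 4 STL arrays, so the lowest values are near the detection limit. The difference was -2.08 (SE 0.57), with an unadjusted p of 0.00566 and an adjusted p of 0.178 in limma. Under normexp background correction with an offset of 50, which lifts dim probes, it was -0.50.

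Cxcl1 (probe at chr14:18690468-18690527, rn4, minus strand, 10 spots an array) varied more than any other chemokine gene tested within the control group. It measured 3.88 in the averaged control 1 and 2, 3.19 in control 3 and 0.36 in control 4, and -0.83, 1.01, 2.52 and -0.66 in STL 5, 6, 7 and 8. STL 7 and STL 6 were thus above control 4, and STL 5 and STL 8 below every control. The difference was -1.97 (SE 0.99, limma adjusted p = 0.305), -3.03 without control 4 and -1.27 without the averaged control 1 and 2.

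Cxcl3 was measured by a dim probe that gave -4.06, -4.01 and -3.81 in controls and -4.06, -4.46, -4.27 and -4.42 in STL livers. The groups were separate only beyond the second decimal, where the averaged control 1 and 2 and STL 5 were alike, and 2 of the 4 STL arrays were well above background. That separation held only with the pair averaged: control 2 alone, at -4.28, lay below STL 5 and STL 7. The difference was -0.34 (SE 0.23, limma adjusted p = 0.420), and 0.16 under normexp correction. As the mean of its 2 probes it was -1.32, with an unadjusted p of 0.00740 in limma, the other probe being above background on 1 control array. Its receptor gene Cxcr2 was above background only on control 1 and control 2, and no fold is given.

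Of 9 neutrophil markers, 5 were tested, Mpo and Mmp8 were above background on no array, and 4 of the 5 were lower in STL livers with a median of -0.21. Without control 4 that became 2 of the 5 with a median of 0.001, and without control 3 the median was -0.71. Their mean level, as a deviation from each marker's mean over the 7 samples, ran from -0.33 to 0.50 in controls and from -0.85 to 0.36 in STL livers. S100a8 and S100a9 were highest in the averaged control 1 and 2 (-0.28 and 0.33), the sample with the highest Cxcl1. The other markers tested peaked elsewhere: Ncf1 in control 4 (2.63), Csf3r in STL 7 (-3.33) and Camp in STL 8 (-3.90). The part of neutrophils in the Cxcl1 and Cxcl2 differences was not tested.

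Cxcl12, the stromal ligand that holds haematopoietic cells and lymphocytes through Cxcr4 and is scavenged by Ackr3, was the ligand with the most positive difference. On its brightest probe (chr4:153516205-153516264, rn4, plus strand) it measured 4.58, 4.94 and 3.85 in controls and 5.55, 5.76, 5.30 and 5.45 in STL livers. Every STL liver was above every control, and the difference of 1.06 (SE 0.24), or 2.09-fold, had an unadjusted p of 0.00184 and an adjusted p of 0.166 in limma. Another probe, at chr4:153510285-153510344, gave 0.65 (SE 0.18) and a junction probe 0.94 (SE 0.26), so the 3 probes ran the same way. On the former the groups just overlapped (control 3 at 3.08 and STL 5 at 3.06), and on the junction probe they did not. The former is assigned to another Cxcl12 transcript than the other 2 probes. The junction probe was dim, at -4.01 to -2.18 over the samples, though well above background on all 8 arrays. The junction probe spans a splice site within chr4:153508808-153511366, and its sequence is shown because it reads spliced Cxcl12 RNA.
Cxcl12 junction probe: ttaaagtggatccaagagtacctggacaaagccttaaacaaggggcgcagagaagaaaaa

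Neither Cxcl12 receptor was higher with its ligand. Cxcr4 spanned -2.30 to -1.68 in controls and -2.33 to -2.02 in STL livers, an overlap, with a difference of -0.16 (SE 0.19, 95% interval -0.58 to 0.26, limma adjusted p = 0.649). The sign of that difference turned under normexp correction and with array weights. Ackr3 measured -3.64, -2.80 and -2.52 in controls and -3.87, -3.08, -4.17 and -4.08 in STL livers, a difference of -0.81 with an overlap of groups. Stellate cells and sinusoidal endothelial cells are known sources of Cxcl12. Of the 8 stellate cell markers 6 were lower in STL livers, among them the collagen genes Col1a1 at -1.39, Col1a2 at -0.90 and Col3a1 at -0.75. Pdgfrb differed by -0.50, Des by -0.31 and Lrat by -0.0008, while Acta2, at 0.05, and Reln, at 0.12, were higher. The mean level of the 8 ran from -0.05 to 0.64 in controls and from -0.39 to 0.00 in STL livers. Of the 5 sinusoidal endothelial markers on the array 3 were higher and 2 lower, with mean levels of -0.15 to -0.02 in controls and -0.24 to 0.28 in STL livers. Kdr was higher by 0.60, while Stab2 differed by -0.23 and Lyve1 by -0.07. The part of either cell type in the Cxcl12 difference was not tested.

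**Figure D3:**
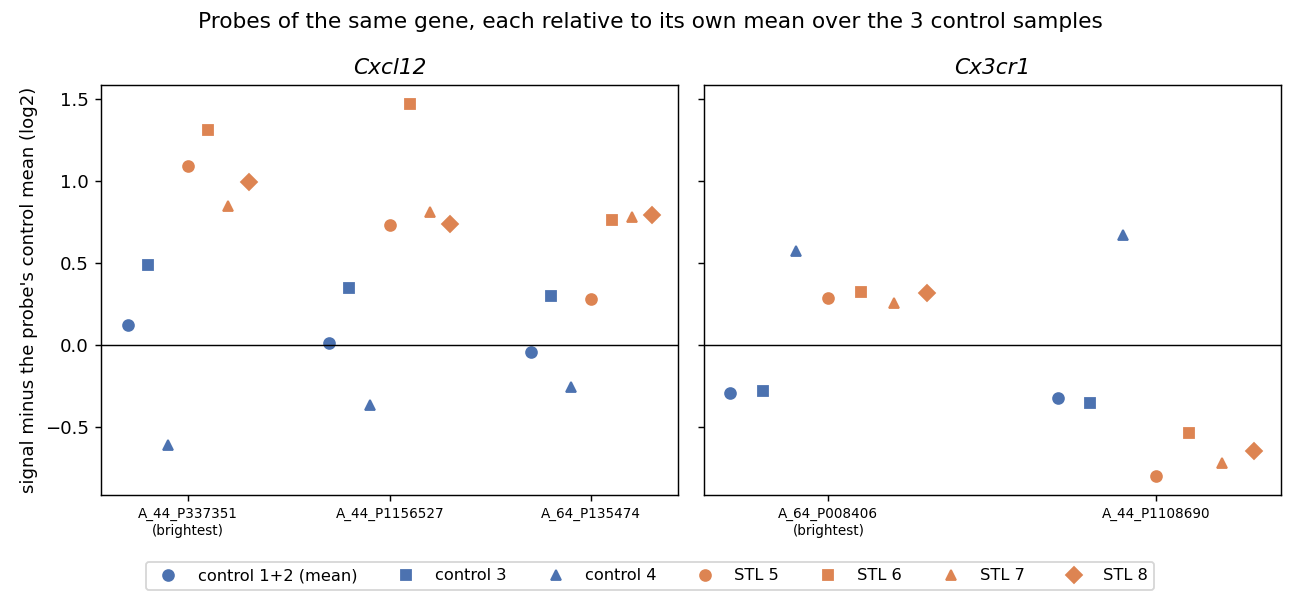
Each column is 1 probe of Cxcl12 or Cx3cr1, and each point 1 sample, plotted as its signal minus that probe's mean over the 3 control samples (log2). The 3 Cxcl12 probes are higher in STL livers, while the brightest Cx3cr1 probe has a higher and the other probe a lower STL mean.

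Cxcl16 and Cx3cl1 are the chemokines made as membrane-anchored proteins, which tether cells bearing Cxcr6 and Cx3cr1 until they are shed. Cx3cl1 (probe at chr19:10667029-10667088, rn4, minus strand, 10 spots an array) measured 0.45, 0.86 and 2.62 in controls and -0.27, 1.00, -0.60 and -0.53 in STL livers. Control 4 was far above the other samples, and STL 6 lay between control 3 and control 4. The difference of -1.41 (SE 0.55), with an unadjusted p of 0.0310 and an adjusted p of 0.230 in limma, was -0.75 without control 4.

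Cxcl16 (probe at chr10:57296159-57296218, rn4, minus strand) measured 1.15, 1.504 and 2.49 in controls and 0.48, 1.27, 1.01 and 0.52 in STL livers. Control 4 was again the highest, and STL 6 was above the averaged control 1 and 2. The difference was -0.90 (SE 0.32), with an unadjusted p of 0.0218 and an adjusted p of 0.208 in limma, and it was -0.51 without control 4. Cxcl16 overlaps Zmynd15 in RefSeq. Its receptor Cxcr6, carried by NK and T cells of the liver, was well above background on 4 control arrays and 1 STL array and spanned -4.25 to -3.95 in controls and -5.23 to -4.10 in STL livers, which overlap.

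Ccl2, which recruits monocytes through Ccr2, showed the same high control 4. It measured -1.80, -0.99 and 0.64 in controls and -2.42, -0.18, -0.79 and -1.20 in STL livers, so the groups overlapped over most of their range. The difference of -0.43 (SE 0.63, 95% interval -1.87 to 1.01, limma adjusted p = 0.726) became 0.25 without control 4. Ccl21, a lymphoid ligand of Ccr7, measured 2.22 in control 4 and between 0.79 and 1.25 in the other samples. All 5 monocyte markers were tested, with mean levels of -0.14 to 0.35 in controls and -0.31 to 0.04 in STL livers. Ccr2 was above background on no array, and Ccr7 likewise, so no receptor value stands beside these ligands.

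The mean level of the cholangiocyte markers had a similar order of samples. All 6 were tested, 5 of them above background on all 8 arrays, and 5 were lower in STL livers with a median of -1.01, which was -0.47 without control 4. Their mean level was 1.39 in control 4, 0.14 in the averaged control 1 and 2 and 0.03 in control 3, and it ran from -1.13 to 0.23 in STL livers, with STL 6 the highest of these. Krt19 measured 1.02 in control 4 against -0.45 to -0.40 in the other controls and -2.18 to -0.73 in STL livers. Not every marker had this order. Krt7, above background on 4 control arrays and 2 STL arrays, was highest among STL livers in STL 5 (-3.72, against -4.15 in STL 6). Sox9, higher by 0.06 in STL livers, was highest of all samples in STL 7 (0.06). Cx3cl1, Cxcl16 and Ccl2 were, like the mean level of these markers, highest in control 4 and, among STL livers, in STL 6. The part of bile duct cells in the differences of these 3 ligands was not tested.

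Cxcl13 draws B cells into follicles through Cxcr5. It measured -2.18, -2.13 and -3.18 in controls and -4.43, -3.11, -5.38 and -3.72 in STL livers, with STL 6 just above control 4 and 2 of 4 STL arrays well above background. The difference was -1.67 (SE 0.52), with an unadjusted p of 0.0114 and an adjusted p of 0.184 in limma, and -0.43 under normexp correction. Cxcr5 measured -1.55, -1.43 and -1.19 in controls and -1.08, -0.87, -0.92 and -1.24 in STL livers on its brightest probe, a difference of 0.36 (SE 0.15, limma unadjusted p = 0.0419, adjusted p = 0.249). That probe has a predicted transcript as its target, RefSeq places Bcl9l over the gene, and the other Cxcr5 probe was above background on 0 arrays. Of 4 B cell markers, Ms4a1 was above background on no array and the 3 tested were higher by 0.17 to 0.69, with mean levels of -0.52 to 0.20 in controls and -0.19 to 0.64 in STL livers.

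The inflammatory CC ligands Ccl3, Ccl4 and Ccl5 draw monocytes and T cells, and Ccl3 and Ccl5 bind Ccr1, which was above background on no array. Ccl3 (probe at chr10:71744611-71744670, rn4, minus strand) measured -1.29, -1.21 and -0.79 in controls and -1.61, -1.37, -1.72 and -1.48 in STL livers. All STL livers lay below all controls, with STL 6 closest. The difference was small, -0.45 (SE 0.17), or 1.37-fold, with an unadjusted p of 0.0251 and an adjusted p of 0.214 in limma, and it was -0.30 without control 4. Ccl5 ran the other way, at 2.89, 2.499 and 2.17 in controls and 3.28, 2.53, 3.03 and 3.15 in STL livers, a difference of 0.48 (SE 0.22, limma adjusted p = 0.272) that was 0.31 without control 4. Ccl4 spanned -3.18 to -2.89 in controls and -3.72 to -2.87 in STL livers.

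Of the 34 chemokine genes tested, groups were separate with every STL sample lower for 4: Cxcl10, Cxcl2, Ccl3 and Cxcl3 (11.8%, against 5.63% of all genes). They were separate with every STL sample higher for 2, Cxcl12 among them (5.88%, against 11.3%). Cxcl2 and Cxcl3 passed the filter on low values through the 4 control arrays, and Cxcl3 was separate only with control 1 and control 2 averaged. The count of 4 is therefore not read against the share of all genes. Cx3cr1, a receptor of patrolling monocytes and macrophages, gave opposite signs on its probes. Its brightest probe measured 0.35, 0.36 and 1.22 in controls and 0.93, 0.96, 0.89 and 0.96 in STL livers, a difference of 0.30 (SE 0.21, limma adjusted p = 0.443), and its other probe gave -0.68 (SE 0.25, limma unadjusted p = 0.0230), also with control 4 the highest. The brightest probe gave 0.58 without control 4 (limma unadjusted p = 0.000648) and 0.15 without control 3 or without the averaged control 1 and 2.

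The brightest Cx3cr1 probe contains sequence found near many gene starts. A run of 20 bases shared with more than 10 of the 33469 RefSeq 300-base windows around gene starts was present in 2 of the 70 chemokine probes (2.86%), this one among them, against 0.34% of all 45598 probes. The stretch that carries the shared runs is bases 31 to 60 of the probe (chr8:125033728-125033787, rn4, minus strand). It is shown because this probe and the other Cx3cr1 probe gave opposite signs. The probes also differ in position and in the transcript they are assigned to, and the part of the stretch in the opposite signs was not tested. Runs in the stretch occurred in up to 67 windows, and it ends in alternating C and A.
Cx3cr1 probe, bases 31 to 60: aacagattcacacacacacacacacacaca

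With the repeat-bearing probes left out, the median of the 9 receptors changed from 0.22 to -0.14, with Cx3cr1 at -0.68, an alternative chosen after seeing the data. Ccr9, the receptor of the gut ligand Ccl25, measured -0.28, -0.30 and -0.01 in controls and -0.01 to 0.13 in STL livers on its brightest probe. The difference was 0.24 (SE 0.12, limma adjusted p = 0.307). The other Ccr9 probe, for the same transcript, was above background on 2 of 8 arrays and was not tested. Ccr6 and Ccr1l1 overlapped between groups. Ccl20, the ligand of Ccr6, was well above background on 3 of 4 control arrays and no STL array and was not tested; its control signal was at least 1.51-fold higher than the STL detection limit.

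**Figure D4:**
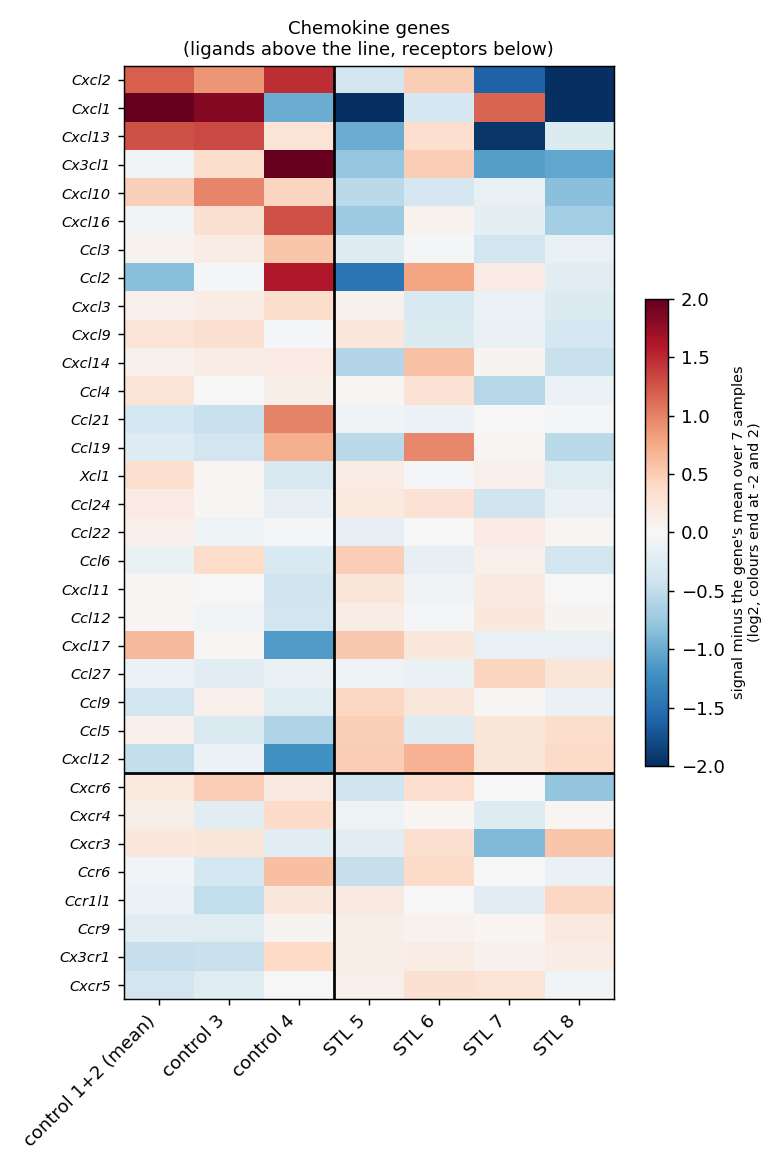
Rows are 33 of the chemokine genes tested (1 is not shown), ligands above the line and receptors below, and columns are the 3 control and 4 STL samples; colour is the signal minus the gene's mean over the 7 samples (log2, colours end at -2 and 2). Control 4 departs from the other controls for, among others, Cxcl1, Cxcl12, Cx3cl1, Cxcl16, Ccl2, Ccl21 and Ccl19.

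Other ligands of the CC family had overlapping groups. Ccl9 and Ccl6, both made by myeloid cells, measured 4.86 to 5.32 and 3.05 to 3.73 in controls and 5.09 to 5.63 and 2.99 to 3.86 in STL livers. Ccl12, a further ligand of Ccr2, ran from 1.04 to 1.44 in controls and 1.39 to 1.62 in STL livers, with a difference of 0.23 (SE 0.13, limma adjusted p = 0.341). The 12 members not described singly, among them Ccl22, Ccl24, Ccl19, Xcl1, Cxcl14 and Ccl27, had differences of at most 0.27 in size in either direction and unadjusted p-values of at least 0.112. Ccl27 overlaps Il11ra1 in RefSeq. All 12 Kupffer cell and macrophage markers were above background on all 8 arrays, 4 were higher and 8 lower, with mean levels of -0.02 to 0.05 in controls and -0.20 to 0.35 in STL livers.

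The inducers and NF-kB pathway genes, of which 22 of 25 were tested, divided into 11 higher and 11 lower with a median of -0.02. None passed the adjusted threshold, and Il6 and Il17a were above background on no array. At an unadjusted p under 0.05 there were 4 lower and none higher: Relb (-0.80) and Nfkb2 (-0.40), the partners of the alternative pathway, Nfkb1 (-0.45), the p105 subunit precursor, and Tnfaip3 (-0.71), the feedback enzyme A20. Of all genes tested, 7.41% were lower and 11.6% higher at that level. Relb measured 1.23, 1.32 and 1.97 in controls and 0.30, 0.96, 0.90 and 0.66 in STL livers, with no overlap. Tnf, the classical inducer of Cxcl1, Cxcl2 and Ccl2, spanned -1.29 to -0.43 in controls and -1.62 to -0.85 in STL livers, and Il1b 1.45 to 2.46 and 1.71 to 2.38, both overlapping.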

How the data were processed

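Spot intensity (processed signal) was taken from the authors' deposited scanner output, made with Agilent Feature Extraction, version 11.5.1.1 per the file headers and 10.7 per the submitters' processing notes. The authors' deposited series table holds the same intensity, rescaled per array; in 6 of its 8 columns the values were not those of the array the label names but of a group mate, and in 0 of the other group. All arrays were on 1 slide with 1 scan time, per the file headers. Probe coordinates are those of the files (rn4); exons and UTRs were not analysed here.

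Spots flagged as outliers were left out, the spots of a probe averaged, log2 taken and each array's 75th percentile subtracted. A probe counted as above background on an array where at least 0.5 of its spots did. Probes were named through RefSeq accessions (23845), symbols (5129) or synonyms (352), and 16272 kept the files' name. The brightest probe stood for a gene, and genes whose probe passed this on 4 or more of 8 arrays entered limma 3.58.1 (lmFit, eBayes with trend; R 4.3.3) at an adjusted p of 0.05; the fit was tested on simulated data. A fold given as "at least" divides the brighter group's mean by the dimmer arrays' detection limit. Intervals are 95% and the number of arrays limits the precision. The chemokine genes and gene lists, and the averaging of control 1 and control 2, were chosen with earlier results of these data known. Genes described singly were those with separate groups or an unadjusted p under 0.05, a set of ligand and receptor pairs whatever their values (Ccl2, Cxcl1, Cxcl2, Cxcl10, Cxcl12, Cxcl16, Cx3cl1, Cxcr4, Ccr2, Cx3cr1, Cxcr2) and, chosen after their values were seen, their family members. Other lists are given by counts and by at most 4 genes of the smallest unadjusted p, with a few named after their values were seen. 1 tested receptor is counted in the totals but not reported here.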

Additional observations from a re-analysis of the deposited data

How the results depend on the processing

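Of the single genes described, the differences of Cxcl10, Cxcl12, Cxcl2, Cxcl13, Cxcl16, Cx3cl1, Ccl3, Cxcl1, Cxcl9, Ccl5 and Cxcr5 kept their direction in every alternative in which they were tested. Cxcl10 ranged from -1.42 to -0.92 and Cxcl12 from 0.74 to 1.30 over the alternatives, with limma adjusted p from 0.0225 to 0.362 and from 0.0494 to 0.362. Array weights, which count unlike arrays less, put 1589 of the 21673 genes tested past the adjusted threshold. Of the 34 chemokine genes tested 5 were among them: Cxcl10 at -1.42, Cxcl13 at -1.73, Cxcl1 at -2.92, Cxcl2 at -2.17 and Cxcl12 at 0.74. Cxcl2 and Cxcl13 passed the filter on low values through the 4 control arrays, where they were higher. The count of 5 is therefore not read against that of all genes, nor their kept direction as support. Under array weights 16 chemokine genes had an unadjusted p under 0.05, as did 32.6% of all genes; in the other alternatives the count ran from 5 to 12 and the share of all genes from 12.7% to 24.5%. Past the adjusted threshold there were 21 genes with each of the 8 arrays as a sample, 21 in the authors' series table and 201 with control 1 and control 2 both left out, none of them a chemokine gene. Leaving out 1 sample at a time gave 1 to 201 genes past the threshold (1 to 45 for single STL livers), 5 to 10 chemokine genes at the unadjusted level, -0.97 to 0.25 for Ccl2 (-0.75 at the lowest for single STL livers) and -0.35 to 0.13 for Cxcr3. Under normexp the signs turned for Cxcl3 (0.16), Cxcr3 (0.23), Cxcr4 (0.015) and Cxcr6 (0.13), and with array weights for Cxcr4 (0.086). Cx3cr1 was -0.19 as a mean of all probes and -0.68 without repeat-bearing probes, where the median of the receptors was -0.16 and -0.14; it was -0.054 under quantile normalization. The median of all genes was 0.0196 under median scaling, 0.0211 under quantile normalization and 0.115 under normexp, against 0.0646. The labels pair no control rat with an STL rat, since the control numbers 1 to 4 and STL numbers 5 to 8 share none. Each column of the slide held 1 array of each group. With array column as a block, over 8 arrays, 9 chemokine genes had an unadjusted p under 0.05 in limma, against 17.9% of all genes. The same 8 arrays without the block gave 12, against 20.6% of all genes. Ccr9, Cxcl1 and Cxcl9 were at that level in both of these fits, though not with control 1 and control 2 averaged. The block took Ccl9, Cx3cl1 and Cxcl16 off the list of 12 and added none. With 3 control samples, and 6 of the tested chemokine genes dim on some arrays, small differences of dim genes are not resolved.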

Other observations

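Ccl5, Cxcl9 and Cxcl10 attract NK cells and T cells, whose markers were measured on the same arrays. Of 6 NK cell markers, Klrb1 and Ncr1 were above background on no array and 3 of the 4 tested were higher in STL livers. Nkg7, a granule protein, measured -1.55, -1.90 and -1.997 in controls and -0.96, -1.56, -1.41 and -1.25 in STL livers, a difference of 0.52 with an overlap through STL 6 (limma adjusted p = 0.209). Klrd1, the CD94 receptor chain, differed by 0.77, with an unadjusted p of 0.0432 in limma and an overlap of groups. The other markers tested, Prf1 at 0.36 and Gzmb at -0.19, also had overlapping groups, and Gzmb was the 1 that was lower in STL livers. Of 8 T cell markers, Cd3e, Cd2 and Cd5 were above background on no array, and the 5 tested had differences from -0.27 to 0.48.

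Of 25 genes tested for signalling downstream of chemokine receptors, 11 were higher and 14 lower with a median of -0.01, and none passed the adjusted threshold. Dock2, the Rac activator of migrating leukocytes, was higher by 0.55 without overlap of groups (limma unadjusted p = 0.0194), and Rgs18, a brake on G protein signalling, was lower at -0.39 without overlap (limma unadjusted p = 0.0110). At an unadjusted p under 0.05 there was 1 gene higher and 1 lower of the 25, against 11.6% and 7.41% of all genes. Groups did not overlap for 2 higher and 2 lower genes, against 11.3% and 5.63% of all genes. Without control 4 the list had 15 genes higher and 10 lower.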
